A study of Rattus norvegicus with 12 samples.

Results

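Of the genes that carry a cell from G2 through mitosis, 43 were followed in rat astrocytes treated with EGF (epidermal growth factor), a ligand that acts through its receptor tyrosine kinase. They are a list of cyclins, mitotic kinases, kinesins, checkpoint proteins and chromosome proteins, matched by gene symbol to the array's annotation. A named probe set was found for 38 of the 43, among 14218 named genes on the array. Where several probe sets carried a gene's name, the brightest on average over the 12 arrays stands for it. No probe set carried the names Tpx2, Ndc80, Anln, Ncapg or Hmgb2, which are not analysed here. Kif2c, Ttk and Cenpe had a mean signal below 215.4, the level under which probe sets were not tested. That left 35 tested members among 10261 tested genes.

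The cells were primary astrocyte cultures from the optic nerve head, the site at which optic nerve fibres exit the globe. In the first experiment, EGF was given for 4 h and sister cultures served as controls, and in the second, EGF was given for 12 h, with controls of that experiment. Each of the 4 groups had 3 arrays. Strain, age, EGF dose and whether the 3 arrays of a group came from separate cultures are not given in the labels, so p-values may measure technical spread only. Group membership follows the titles, because the description field does not differ between treated and control samples.

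Cells that divide make these transcripts mainly in G2 and mitosis, and resting cells make little of them. Cyclin B with Cdk1 starts mitosis, motor proteins and Aurora kinases build the spindle, checkpoint proteins delay the separation of sister chromatids until all are attached, and Cdc20 with the anaphase-promoting complex ends the arrest. Cytokinesis then splits the cell. In many tissues EGF is a mitogen that takes resting cells into G1. Signals below are MAS5 signals on a linear scale, fold changes are log2 fold changes of EGF over control of log2(signal + 24.4) ± 1 standard error (SE), and a change is called at an adjusted p under 0.05 in limma over 18625 probe sets.

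With these settings, each G2 and mitosis gene whose EGF effect passed the test was lower with EGF, at 4 h and at 12 h, and no member was called higher. At 4 h, 14 of the 35 tested members fell, 0 rose and 21 passed in neither direction, where 16.5% of all tested probe sets fell and 11.4% rose. Over tested genes with 1 probe set each, as the members are counted, the shares were 19.6% and 12.8%. At 12 h, 24 fell, 0 rose and 11 passed in neither direction, where 20.8% of all tested probe sets (24.2% of genes) fell and 15.3% (16.5% of genes) rose. By limma at an unadjusted p under 0.05, counting both directions, 20 members passed at 4 h and 26 at 12 h. The 26 include Mad2l1, which was higher with EGF. Among the called falls, 7 at 4 h and 16 at 12 h reached 2-fold. The shares of all probe sets at these cut-offs were not counted. Less transcript per cell and fewer cells in G2 or mitosis cannot be told apart in these bulk samples.

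The calls at 4 h and at 12 h overlapped in part. Of the tested members, 10 fell at both times, where 9.81% of all tested probe sets did so. They were Ccnb2, Cks2, Kif11, Bub1, Cdca3, Kif20a, Racgap1, Ect2, Smc2 and Mki67. Another 4 passed at 4 h and not at 12 h (Melk, Kif22, Aurkb and Cdca8), 14 passed at 12 h and not at 4 h, and 7 passed at neither. Of the 14, those nearest the threshold at 4 h were Nusap1 (adjusted p = 0.0538) and Kif20b (adjusted p = 0.0606). The fold change lay below 0 at both times in 31 of the 38 measured members and in 29 of the 35 tested ones, against 41.4% of all tested probe sets. Over the 38, the median log2 fold change was -0.65 at 4 h and -1.02 at 12 h, where the median of all tested probe sets was -0.15 and -0.06. Across the members, the effects at 4 h and at 12 h correlated at r = 0.16 (Spearman's rho 0.12), a description over 38 genes that share their arrays and are not independent replicates.

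On single arrays, the median member stood at -0.78, -0.71 and -0.45 with EGF at 4 h, against -0.12, -0.05 and 0.22 in the controls, as log2 values relative to the mean of the controls. At 12 h it stood at -0.83, -0.85 and -1.27 with EGF, against -0.10, 0.00 and 0.13 in the controls. All 6 EGF arrays lay below all 6 control arrays. Member by member, the 3 EGF arrays were below all 3 controls for 20 tested members at 4 h, where 29.8% of probe sets did so. At 12 h this held for 28 tested members, where 28.3% of probe sets did so.

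**Figure D1:**
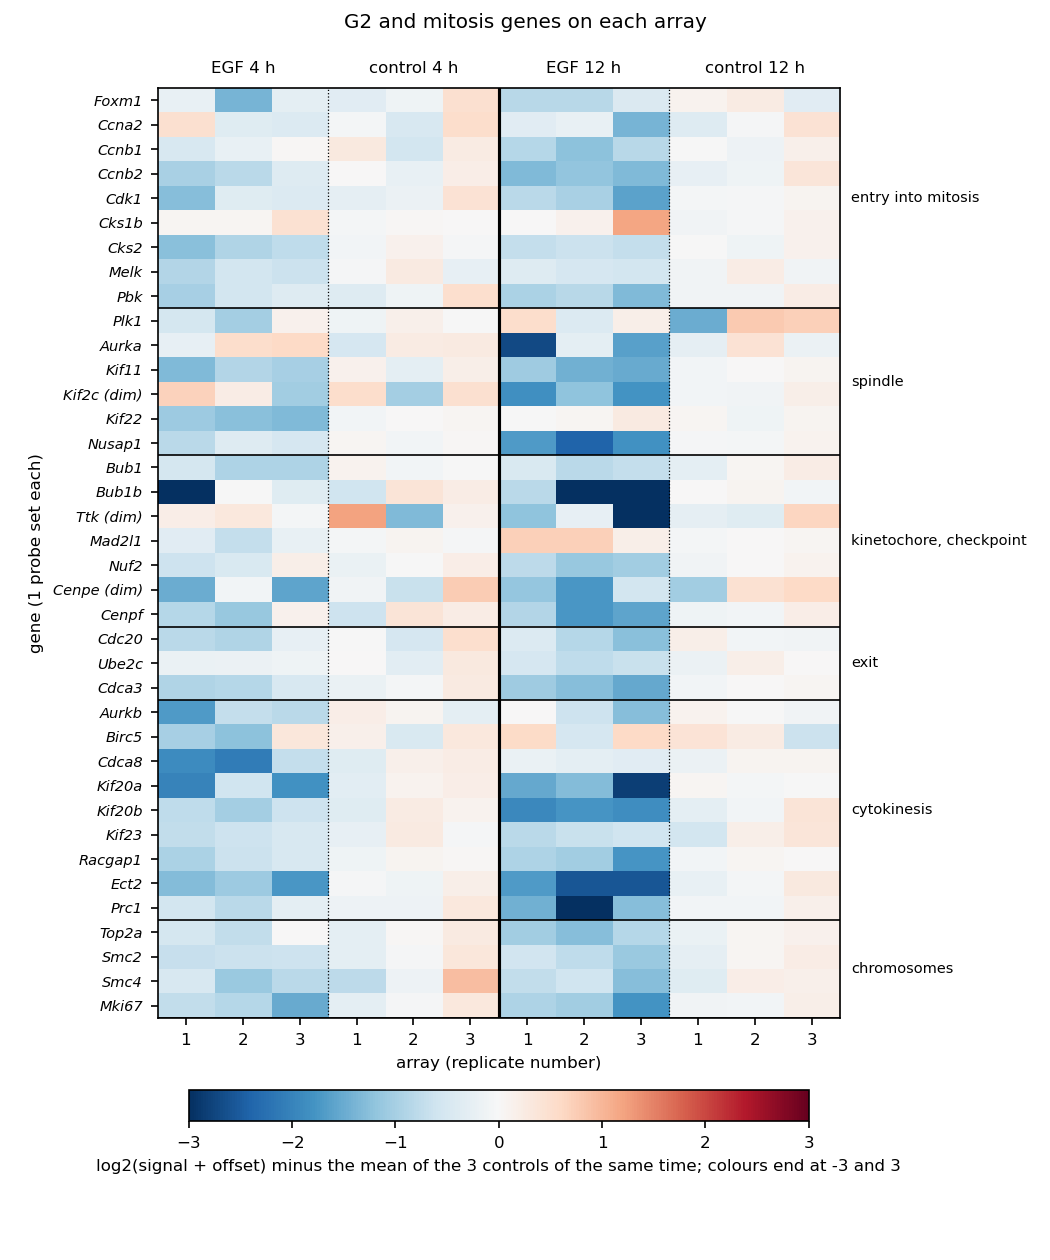
Level of the 38 measured G2 and mitosis genes (rows, grouped by role) on the 12 arrays (columns), as log2(signal + 24.4) minus the mean of the 3 control arrays of the same time. Blue is below the controls and red above, genes marked dim were not tested, and blue fills most rows of the 6 EGF columns.

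Sets of arrays stood apart by their control probe sets. The replicate 3 pair at 4 h had mean hybridisation control signals of 25056 with EGF and 27553 in the control, against 41.9 to 134.5 on the other 10 arrays. At 12 h the actin 3' to 5' signal ratio, a measure of how far labelled RNA reaches from its 3' end, was 1.24 on EGF replicate 3 and 11.1 to 21.7 on the other 5 arrays, and at 4 h it was 1.20 to 1.61. Against controls of the same set, the median member stood at -0.62 for EGF replicates 1 and 2 at 4 h and at -0.67 for the replicate 3 pair, with 33 and 34 of 38 members below 0. At 12 h it stood at -0.89 for EGF replicates 1 and 2, with 33 of 38 below 0. EGF replicate 3 at 12 h had no control in its own set. Against the 3 controls of the other set its median member stood at -1.27, with 33 of 38 below 0. Fitting the set as a block gave 19 falls at 4 h, and 23 falls and 1 rise (Mad2l1) at 12 h. EGF replicate 3 is the only array of its set. The block therefore takes it out of the 12 h effect, and the 12 h fold changes equal those without that array (Mad2l1, 0.71 in both).

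The 4 h count depended on scaling and on single arrays more than the 12 h count did. Median signals were 317.0, 319.4 and 378.9 with EGF at 4 h, against 384.7, 371.5 and 415.2 in the controls. Centring each array on its median moved the median of all tested probe sets at 4 h to 0.04, where it was -0.15 as deposited, and the share of higher calls among all calls to 63.7%, where it was 40.8%. It left 6 of the 14 falls at 4 h (Cks2, Kif11, Kif22, Cdca8, Kif20a and Ect2) and gave 22 calls at 12 h, and quantile normalization gave 7 and 21. Without 1 array of 4 h, the 4 h count was 8 (EGF replicate 1), 9 (EGF replicate 2), 9 (control replicate 3) or 10 (any other). It was 14 to 17 without 1 array of 12 h, and 9 without the replicate 3 pair. Cks2, Kif11, Kif22, Cdca3, Cdca8 and Ect2 stayed called at 4 h whichever array was left out, and 17 of the 24 stayed called at 12 h, where the count was 17 to 25. Leaving out any 1 of the 6 arrays at 4 h ended 4 to 6 calls at 4 h, and any 1 of those at 12 h ended 2 to 7 calls at 12 h. At 4 h, calls were also lost without the replicate 3 pair (Bub1, Kif20a, Racgap1, Smc2 and Mki67), with no filter (Melk, Aurkb and Racgap1) and with the 4 h experiment fitted alone (Melk and Cdca8). At 12 h they were lost with median centring (Bub1 and Kif23), quantile normalization (Bub1, Cdc20 and Kif23), no filter (Bub1, Cdc20 and Kif23) and the 12 h experiment fitted alone (Aurka, Bub1 and Kif23). Beside each call lost by leaving out an array, the highest adjusted p is given with the array whose omission gave it.

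The cultures were checked against markers. Vim and Gja1, which astrocytes express, made up most of the summed signal of the astrocyte list, with mean signals of 91770 ± 21860 and 63780 ± 14000 with EGF at 12 h and 70140 ± 5739 and 69970 ± 2531 in their controls (SD, n = 3 each). Gfap, the defining filament protein of astrocytes, and the water channel Aqp4 were below the test filter in all groups, as were Slc1a2 and Aldh1l1 of the same list. Gfap averaged 195 ± 84.7 with EGF and 215 ± 48.0 in the controls at 4 h, and 130.1 ± 109 with EGF and 201 ± 131 in the controls at 12 h (SD, n = 3 each). The astrocyte list (11 of 12 measured) summed to 133400 to 160500 with EGF and 126000 to 138100 in controls at 4 h, and to 139500 to 200600 with EGF and 147800 to 154000 in controls at 12 h. Of its 7 tested genes, 0 fell and 1 rose at 4 h, and 2 fell and 1 rose at 12 h. In both groups at 4 h and in the 12 h controls, the fibroblast and meningeal list given next had higher sums. The astrocyte sum alone therefore does not establish the cell type. Aldoc, a glycolytic enzyme of astrocytes, averaged 31.0 ± 18.9 with EGF and 2655 ± 369 in controls at 12 h (-5.64 ± 0.64, adjusted p = 1.81e-05). At 4 h it averaged 85.6 ± 88.0 with EGF and 160.5 ± 120.2 in controls. Its 12 h controls were thus far above its 4 h controls (4.18 ± 0.64, adjusted p = 0.00031, limma). Glul, glutamine synthetase, averaged 2980.0 ± 470.4 with EGF and 7210.0 ± 575 in controls at 12 h (-1.28 ± 0.15, adjusted p = 2.83e-05; SD, n = 3 each). Nes, an intermediate filament of immature and reactive astrocytes, rose at both times (2.37 ± 0.29 and 2.36 ± 0.29, adjusted p = 4.53e-05 and 3.21e-05). No marker of any list was at 0.

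Among markers of other cell types, 3 lists had a lower summed signal with EGF at both times, with no overlap of arrays. The fibroblast and meningeal list (8 of 8 measured) summed to 211300 to 225400 with EGF and 244300 to 275300 in controls at 4 h, and to 115000 to 184700 with EGF and 207600 to 247400 in controls at 12 h. The oligodendrocyte lineage list (9 of 10 measured) summed to 5536 to 6354 with EGF and 9859 to 10490 in controls at 4 h, and to 6167 to 7517 with EGF and 12840 to 14050 in controls at 12 h. The endothelial and pericyte list (7 of 8 measured) summed to 1406 to 1881 with EGF and 2734 to 3285 in controls at 4 h, and to 1180 to 1749 with EGF and 2694 to 3417 in controls at 12 h. Of their tested genes, 1 of 7 fibroblast genes fell at 4 h and 5 of 7 at 12 h. Of the oligodendrocyte genes, 3 of 5 (Mbp, Cnp and Pdgfra) fell at each time and made up most of the sums, and 1, Cspg4, rose at 12 h. Olig1, Olig2, Sox10 and Mog of that list were too dim to test. Tek, the endothelial gene tested, fell at both times and made up most of the endothelial and pericyte sums. The other lists did not follow this pattern. Microglia and macrophage genes (8 of 8 measured) summed to 1839 to 2058 with EGF and 2183 to 2694 in controls at 4 h, and to 1810 to 2570 with EGF and 937 to 1088 in controls at 12 h. Of its 4 tested genes 1 passed, Cd68, which averaged 924 ± 114 with EGF and 62.1 ± 62.5 in controls at 12 h (SD, n = 3 each) and makes up most of the gap between the sums at 12 h. Schwann cell genes (5 of 6 measured) summed to 27930 to 29320 with EGF and 17890 to 19680 in controls at 4 h, and to 8228 to 10590 with EGF and 9501 to 12140 in controls at 12 h. Of its 3 tested genes Egr2, an early growth response gene, rose at both times and averaged 9110.0 ± 328 with EGF and 1297 ± 335 in controls at 4 h (SD, n = 3 each), which is most of the gap between the sums. Prx and Pmp22 fell at 12 h. Neuronal genes (7 of 7 measured, 0 tested) summed to 947.4 to 1190 with EGF and 842.8 to 984.5 in controls at 4 h, and to 1011 to 1736 with EGF and 348.8 to 798.4 in controls at 12 h. The part of these cell types in the falls of the mitosis genes was not tested.

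The promoters of the members share letters that the choice of genes did not use. Among such elements, TTTGAA and TTTAAA are the letters of the cell cycle genes homology region, known from promoters of human and mouse genes that peak in G2 and mitosis, and CCAAT is the core of the site for the factor NF-Y. RefSeq promoter sequences (build GRCr8) were found for 36 of the 43 members, and the 250 bases before the annotated start were searched on both strands, so that TTCAAA and ATTGG count as well. TTTGAA or TTTAAA was present in 29 of the 36 (80.6%), against 17.6% of 8595 tested genes and 26.9% of all 27457 genes of the table. CCAAT was present in 27 (75.0%), against 37.3% of tested genes, and 2 or more copies in 19 (52.8%), against 13.2%. Both kinds of element stood in 25 (69.4%), against 6.47% of tested genes. Shown here are the 150 bases before the start of 6 members in which the first base of a CCAAT lay 23 to 26 bases before that of a TTTGAA or TTTAAA, and of Kif22, which had both elements at another distance and fell at 4 h. Each is given 5' to 3' along the gene, with the matches in capitals.
Ccnb1: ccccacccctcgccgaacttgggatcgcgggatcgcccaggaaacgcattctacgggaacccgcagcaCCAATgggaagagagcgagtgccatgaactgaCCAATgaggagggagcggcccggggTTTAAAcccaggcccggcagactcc
Ccnb2: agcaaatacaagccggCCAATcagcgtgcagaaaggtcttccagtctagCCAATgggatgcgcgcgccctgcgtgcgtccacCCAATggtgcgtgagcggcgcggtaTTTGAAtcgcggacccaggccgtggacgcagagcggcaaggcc
Kif11: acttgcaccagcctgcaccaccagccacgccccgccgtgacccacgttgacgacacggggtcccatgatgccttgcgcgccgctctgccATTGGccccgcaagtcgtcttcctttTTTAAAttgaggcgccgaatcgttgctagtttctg
Nusap1: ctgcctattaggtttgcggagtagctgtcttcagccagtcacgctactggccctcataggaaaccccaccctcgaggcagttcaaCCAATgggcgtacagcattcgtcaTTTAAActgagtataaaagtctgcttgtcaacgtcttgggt
Kif20a: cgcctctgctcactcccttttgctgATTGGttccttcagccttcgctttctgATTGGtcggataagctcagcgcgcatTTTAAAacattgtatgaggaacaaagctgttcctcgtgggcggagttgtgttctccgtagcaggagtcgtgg
Mki67: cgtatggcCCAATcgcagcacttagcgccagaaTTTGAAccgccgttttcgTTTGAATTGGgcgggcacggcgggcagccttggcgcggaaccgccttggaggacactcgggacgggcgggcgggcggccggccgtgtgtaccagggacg
Kif22: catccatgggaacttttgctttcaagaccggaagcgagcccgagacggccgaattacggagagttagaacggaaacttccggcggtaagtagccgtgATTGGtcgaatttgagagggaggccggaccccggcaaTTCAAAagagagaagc
These windows are chr2:33655226-33655375, minus strand for Ccnb1, chr8:79981659-79981808, minus strand for Ccnb2, chr1:244536717-244536866, plus strand for Kif11, chr3:127057145-127057294, plus strand for Nusap1, chr18:26504272-26504421, plus strand for Kif20a, chr1:199952594-199952743, minus strand for Mki67 and chr1:191080879-191081028, minus strand for Kif22. In Mki67 the second TTTGAA and an ATTGG overlap by a base. The distance was 25 bases in Ccnb1, 25 in Ccnb2, 26 in Kif11, 24 in Nusap1, 26 in Kif20a and 25 in Mki67. It was chosen after the sequences were seen. In all, 10 of the 36 members had such a pair (27.8%), against 0.279% of tested genes, and the others were Cks1b, Cks2, Cenpe and Cdca8. Of the 9 tested members with the pair, 6 fell at 4 h and 7 at 12 h. Of the 20 tested members whose promoter lacked it, 6 fell at 4 h and 14 at 12 h. The matches are a description of letters, and a window without them says nothing of the factors.

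Among the 9 genes of entry into mitosis, 3 fell at 4 h and 5 at 12 h, with medians of -0.64 and -0.70. Both cyclin B genes fell at 12 h, and Ccnb2 also fell at 4 h. Ccnb2, whose product activates Cdk1, had signals of 602, 678 and 917 with EGF at 4 h, against 1199.9, 1031 and 1388 in controls, and of 519, 573 and 517 with EGF at 12 h, against 1115, 1218 and 1711 in controls. The groups did not overlap at either time. Its log2 fold change was -0.71 ± 0.21 at 4 h (adjusted p = 0.0238, limma, or 0.0987 with EGF replicate 1 at 4 h left out) and -1.27 ± 0.21 at 12 h (adjusted p = 0.000446). Ccnb1, the other main mitotic cyclin, had 404, 489.9 and 589 with EGF at 4 h, against 708, 383 and 684 in controls, and the groups overlapped. At 12 h it had 442, 339 and 448 with EGF, against 814, 739.8 and 920.2 in controls, with no overlap. The log2 fold change came to -0.22 ± 0.26 at 4 h (adjusted p = 0.586, limma) and -0.97 ± 0.26 at 12 h (adjusted p = 0.00985). A second Ccnb1 probe set gave -0.997 at 4 h (adjusted p = 0.0798) and -1.53 at 12 h (adjusted p = 0.00883). Ccna2, the cyclin of S phase and G2, had 359.9, 393 and 161 with EGF at 12 h, against 348, 451 and 629 in controls, an overlapping range. At 4 h it had 422, 226 and 215 with EGF, against 281, 207 and 439.5 in controls. It passed at neither time, with -0.10 ± 0.40 and -0.65 ± 0.40 (adjusted p = 0.891 and 0.225).

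Cdk1, the kinase that the B cyclins activate, had 388, 746 and 719.6 with EGF at 4 h, against 806, 860.3 and 1321 in controls, and 799, 707 and 448 with EGF at 12 h, against 1346, 1383 and 1506 in controls. All EGF arrays lay below their controls at both times, and only the 12 h fall passed. Fold changes were -0.69 ± 0.28 at 4 h (adjusted p = 0.0890, limma) and -1.13 ± 0.28 at 12 h (adjusted p = 0.00719). At 4 h it passed without EGF replicate 3 of 12 h (adjusted p = 0.0383), an array that enters the 4 h test only through the spread. Cks2, a small subunit that binds Cdk1, fell at both times, with 602, 775 and 843 with EGF at 4 h, against 1380.1, 1584 and 1417 in controls, and 815, 863 and 815 with EGF at 12 h, against 1349, 1227 and 1492 in controls. No EGF array reached a control. This gave -0.97 ± 0.17 at 4 h (adjusted p = 0.000808) and -0.69 ± 0.17 at 12 h (adjusted p = 0.00595).

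Its paralogue Cks1b, which also helps to mark the inhibitor Cdkn1b for degradation, did not follow. It had 5109, 5094 and 6753 with EGF at 4 h, against 4739, 5067 and 4973 in controls, and 1576, 1717 and 3544 with EGF at 12 h, against 1449, 1527 and 1710.2 in controls. The signals differed between the experiments in both arms, and at 12 h EGF replicate 3 stood above the other 5 arrays. Neither effect passed, with 0.19 ± 0.24 and 0.44 ± 0.24 (adjusted p = 0.621 and 0.174). A second Cks1b probe set was higher at 12 h (1.06, adjusted p = 0.0136). Melk, a kinase of dividing cells, fell at 4 h, with 211, 272 and 255 with EGF, against 404, 502 and 342 in controls (-0.69 ± 0.22, adjusted p = 0.0337, or 0.132 with control replicate 2 at 4 h left out). Its adjusted p was 0.0561 with the replicate number as a block. The mitotic kinase gene Pbk fell at 12 h (-1.04 ± 0.31, adjusted p = 0.0185, or 0.0732 with control replicate 3 at 12 h left out). Foxm1, a transcription factor that drives many genes of this phase, averaged 438 ± 76.8 with EGF and 734 ± 150.2 in controls at 12 h (SD, n = 3 each). Its fold changes of -0.63 ± 0.34 and -0.70 ± 0.34 did not pass (adjusted p = 0.190 and 0.121).

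**Figure D2:**
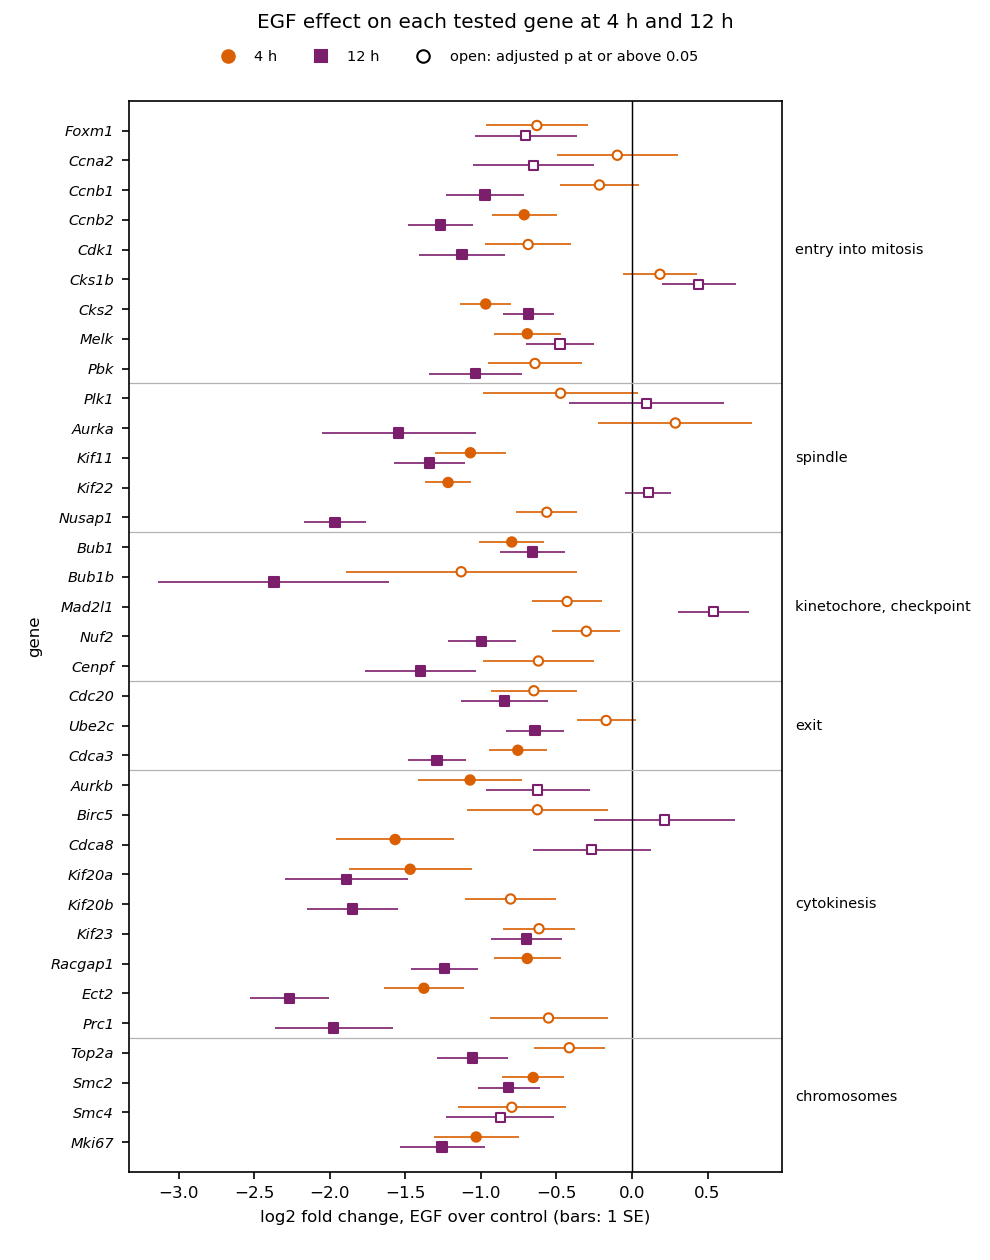
EGF effect on each of the 35 tested genes, as log2 fold change of EGF over control with bars of 1 SE, at 4 h (circles) and 12 h (squares); filled symbols have an adjusted p under 0.05. All filled symbols lie left of 0, 14 at 4 h and 24 at 12 h, and Bub1b, Plk1 and Aurka have wide bars.

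Of the spindle genes, 6 were measured and 5 tested, of which 2 fell at 4 h and 3 at 12 h, with medians over the 6 of -0.52 and -1.44. Nusap1 and Kif22 were the members whose EGF effect differed between the times by the test of the difference. Nusap1 binds and bundles spindle microtubules. Its signals were 615, 831 and 754 with EGF at 4 h, against 1125, 1031 and 1109.6 in controls, and 524, 313 and 482 with EGF at 12 h, against 1717, 1667 and 1874 in controls. The groups were apart at both times and further apart at 12 h. The effect was -0.56 ± 0.20 at 4 h (adjusted p = 0.0538, limma) and -1.97 ± 0.20 at 12 h (adjusted p = 7.17e-06), and the 12 h effect minus the 4 h effect was -1.40 ± 0.29 (adjusted p = 0.00731). A second Nusap1 probe set gave -0.36 at 4 h and -0.95 at 12 h (adjusted p = 0.361 and 0.0138).

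Kif22 is a chromosome-bound kinesin that pushes chromosome arms towards the spindle equator. It had 609, 542 and 508 with EGF at 4 h, against 1248, 1329 and 1372 in controls, and 1436, 1521 and 1754 with EGF at 12 h, against 1503, 1326 and 1531 in controls. At 4 h every EGF array was far below every control, while at 12 h the groups overlapped. The fold change was -1.22 ± 0.15 at 4 h (adjusted p = 6.15e-05, limma) and 0.11 ± 0.15 at 12 h (adjusted p = 0.617). The difference between the effects was 1.33 ± 0.22 (adjusted p = 0.00174). Over all probe sets, 6.11% had a lower and 5.45% a higher effect at 12 h than at 4 h, against 1 and 1 of the 35 members. When EGF replicate 3 at 12 h was left out, the difference also passed for Mad2l1 (1.14, adjusted p = 0.0286) and Prc1 (-1.77, adjusted p = 0.0241), which made 4 members.

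Kif11, the kinesin that pushes the spindle poles apart, fell at both times. Its signals were 207, 287 and 263 with EGF at 4 h, against 608, 443 and 624 in controls, and 434, 327 and 310.0 with EGF at 12 h, against 877, 934 and 988 in controls. No array overlapped, and the fold changes were -1.07 ± 0.23 (adjusted p = 0.00405) and -1.34 ± 0.23 (adjusted p = 0.000584). Aurka, the kinase of the spindle poles, had 49.1, 365 and 130.3 with EGF at 12 h, against 373, 627 and 401 in controls. The EGF arrays were scattered but below all controls (-1.55 ± 0.51, adjusted p = 0.0302, or 0.111 with control replicate 2 at 12 h left out). At 4 h it had 243, 430.1 and 455 with EGF, against 199, 352 and 356 in controls, and the groups overlapped (0.29 ± 0.51, adjusted p = 0.726). Plk1, the polo-like kinase that acts from entry to exit, had 549, 279 and 429.8 with EGF at 12 h, against 118, 666 and 631 in controls. Its replicates spread more than its groups differed (-0.47 ± 0.51 at 4 h and 0.10 ± 0.51 at 12 h, adjusted p = 0.544 and 0.901). Kif2c, which takes microtubules apart, was too dim to test. It had 97.6, 164 and 100.1 with EGF at 12 h, against 387, 380.4 and 469 in controls.

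Of the genes of kinetochores and the checkpoint, 7 were measured and 5 tested, of which 1 fell at 4 h and 4 at 12 h, with medians over the 7 of -0.62 and -1.15. Bub1, a kinase of the spindle checkpoint, had 414, 308 and 309.5 with EGF at 4 h, against 655, 574 and 602 in controls, and 642, 501 and 541 with EGF at 12 h, against 727, 936 and 1059 in controls. The groups were apart at both times. The log2 fold change came to -0.80 ± 0.22 at 4 h (adjusted p = 0.0141, limma, or 0.0549 with EGF replicate 2 at 4 h left out) and -0.66 ± 0.22 at 12 h (adjusted p = 0.0290, or 0.117 with control replicate 3 at 12 h left out). Nuf2, which with Ndc80 ties microtubules to the kinetochore, had 683, 532 and 572 with EGF at 12 h, against 1115, 1218 and 1288 in controls (-0.99 ± 0.22, adjusted p = 0.00360). Cenpf, a large kinetochore protein, had 496, 265 and 298 with EGF at 12 h, against 859.5, 891 and 1076 in controls (-1.40 ± 0.37, adjusted p = 0.00931). In both, every EGF array lay well below the controls at 12 h. At 4 h, Nuf2 had 433, 484 and 761 with EGF, against 588, 666 and 785 in controls, and Cenpf had 219, 176 and 462 with EGF, against 265, 557 and 488 in controls. These groups overlapped (adjusted p = 0.356 and 0.240).

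Bub1b, the checkpoint protein BubR1, had 239, 25.1 and 29.8 with EGF at 12 h, against 443, 459.5 and 408 in controls. The lowest EGF arrays stood near the offset of 24.4, so the size of the fold change depends on it. It was -2.37 ± 0.76 (adjusted p = 0.0271, or 0.0918 with EGF replicate 2 at 12 h left out), and -1.62 with an offset of 97.6. With the array set as a block it was -2.01 (adjusted p = 0.0542). Mad2l1, which blocks Cdc20 while the checkpoint is on, ran the other way at 12 h. It had 451, 345 and 489.9 with EGF at 4 h, against 559, 616 and 567 in controls, and 551, 559 and 378 with EGF at 12 h, against 316, 330.2 and 341 in controls. The EGF arrays lay below the controls at 4 h and above them at 12 h. Neither effect passed, with -0.43 ± 0.23 and 0.54 ± 0.23 (adjusted p = 0.195 and 0.0871). With EGF replicate 3 at 12 h left out, the 12 h value passed as higher (0.71, adjusted p = 0.0333). A second Mad2l1 probe set fell at 4 h (-1.13, adjusted p = 0.0452) and another did not pass (-0.21, adjusted p = 0.773). The checkpoint kinase Ttk and the kinesin Cenpe were too dim to test. Ttk had 116, 252 and 15.1 with EGF at 12 h, against 244, 229 and 485 in controls, and Cenpe had 38.3, 17.3 and 70.6 with EGF, against 42.9, 167 and 185 in controls, and both overlapped.

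**Figure D3:**
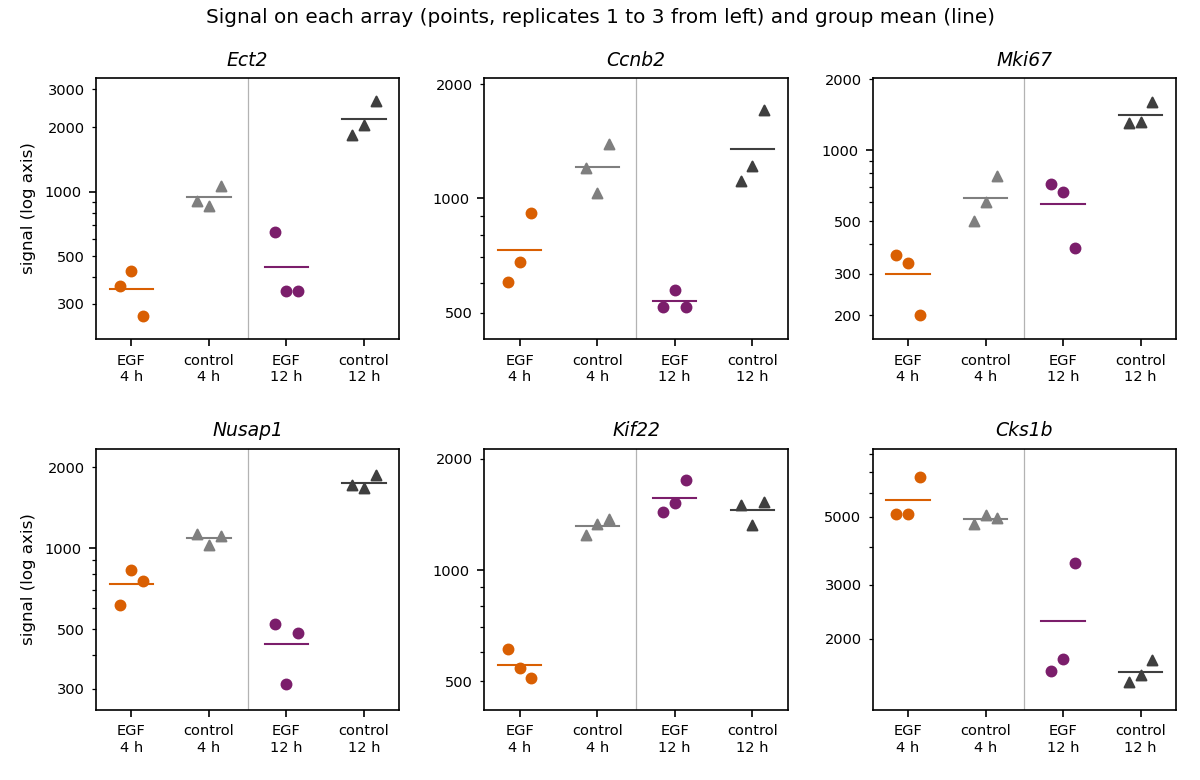
Signal of 6 members on each array (points, log axis) with the mean of the 3 arrays of a group (line), for EGF and control at 4 h and at 12 h. Ect2, Ccnb2 and Mki67 are below control at both times, Nusap1 is furthest below at 12 h, Kif22 is below control at 4 h and overlaps it at 12 h, and Cks1b has 1 high EGF array at 12 h.

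All 3 genes grouped under exit from mitosis fell at 12 h and 1, Cdca3, at 4 h, with medians of -0.65 and -0.85. Cdca3 was grouped here, though its role in the loss of Wee1 belongs to entry, and Cdc20 and Ube2c did not pass at 4 h. Cdca3, part of a ubiquitin ligase that leads to degradation of the Cdk1 inhibitor Wee1, had 523, 543 and 710.0 with EGF at 4 h, against 877, 960.4 and 1214 in controls, and 862, 738 and 620.3 with EGF at 12 h, against 1725, 1851 and 1924 in controls. The groups were apart at both times (-0.76 ± 0.19, adjusted p = 0.0101, and -1.29 ± 0.19, adjusted p = 0.000174). Cdc20, which activates the anaphase-promoting complex, had 838, 604 and 454 with EGF at 12 h, against 1276, 1058 and 1046 in controls (-0.85 ± 0.29, adjusted p = 0.0339, or 0.112 with control replicate 1 at 12 h left out). At 4 h it had 534, 503 and 811 with EGF, against 950.3, 673 and 1374 in controls, which overlap (-0.65 ± 0.29, adjusted p = 0.111, or 0.0373 with the replicate number as a block). A second tested Cdc20 probe set passed at neither time (-0.68 and -0.82, adjusted p = 0.366 and 0.235), and the 12 h call was lost with the mean of the tested probe sets (-0.83, adjusted p = 0.0897). Ube2c, the ubiquitin-conjugating enzyme of that complex, had 639.5, 535 and 571 with EGF at 12 h, against 809, 1034 and 928 in controls (-0.64 ± 0.20, adjusted p = 0.0203, or 0.0832 with control replicate 2 at 12 h left out). It had 717, 730.2 and 749.9 with EGF at 4 h, within the range of its controls, 838, 660.4 and 1023 (-0.17 ± 0.20, adjusted p = 0.564).

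Among the 9 measured genes of cytokinesis, 5 fell at 4 h and 6 at 12 h, with medians of -0.80 and -1.24. Genes of the central spindle made up the falls at 12 h, and of the chromosomal passenger complex Aurkb and Cdca8 fell at 4 h. Ect2, the exchange factor that switches on RhoA to form the contractile ring, had 365, 427 and 264 with EGF at 4 h, against 907, 857 and 1059.8 in controls. At 12 h it had 648, 345 and 345 with EGF, against 1831, 2046 and 2643 in controls. Every EGF array lay far under the lowest control of its time, and the controls of 12 h were above those of 4 h. The log2 fold change was -1.38 ± 0.26 at 4 h (adjusted p = 0.00168, limma) and -2.27 ± 0.26 at 12 h (adjusted p = 2.09e-05). Racgap1, which recruits Ect2 to the midzone, had 398, 501 and 558 with EGF at 4 h, against 727, 837 and 818 in controls, and 986, 904 and 541 with EGF at 12 h, against 1799.8, 1978 and 1900.3 in controls. The groups were apart at both times (-0.69 ± 0.22, adjusted p = 0.0325, or 0.123 with EGF replicate 1 at 4 h left out, against -1.24 ± 0.22, adjusted p = 0.000688, at 12 h). A second, dimmer Racgap1 probe set passed at neither time (-0.44 and -0.27), and the mean of both did not pass at 4 h (-0.57, adjusted p = 0.0894). Kif23, the motor that pairs with Racgap1 in centralspindlin, averaged 639 ± 47.3 with EGF and 1086 ± 333 in controls at 12 h (SD, n = 3 each). It fell at 12 h (-0.70 ± 0.24, adjusted p = 0.0339, or 0.148 with control replicate 3 at 12 h left out). At 4 h its -0.62 ± 0.24 did not pass (adjusted p = 0.0681).

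Kif20a, the kinesin that carries Aurora B to the midzone, had 157, 461 and 185 with EGF at 4 h, against 565, 767 and 814 in controls, and 451, 537 and 170.3 with EGF at 12 h, against 1421, 1312 and 1349.8 in controls. EGF replicate 3 was the lowest of its group at 12 h, and all EGF arrays were below all controls at both times. This gave -1.47 ± 0.41 at 4 h (adjusted p = 0.0159, or 0.0723 with EGF replicate 1 at 4 h left out) and -1.89 ± 0.41 at 12 h (adjusted p = 0.00266). Kif20b, a related kinesin, had 139.7, 161 and 148 with EGF at 12 h, against 485, 564 and 798 in controls, and the 3 EGF arrays lay close together far under the controls (-1.85 ± 0.30, adjusted p = 0.000316). Prc1, which bundles the antiparallel microtubules of the midzone, had 567, 149 and 642 with EGF at 12 h, against 1497, 1498 and 1762 in controls (-1.97 ± 0.39, adjusted p = 0.00148). EGF replicate 2 was the lowest. At 4 h Prc1 had 861, 707 and 1021 with EGF, against 1139.8, 1126 and 1569.9 in controls (-0.55 ± 0.39, adjusted p = 0.330), and Kif20b had 193, 155 and 212 with EGF, against 261, 412 and 369.5 in controls (-0.80 ± 0.30, adjusted p = 0.0606). Their groups did not overlap at 4 h, but neither passed.

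Of the passenger complex, Aurkb, its kinase, and Cdca8 (borealin), which docks it on the centromere, fell at 4 h. Cdca8 had 25.9, 18.7 and 87.9 with EGF at 4 h, against 119, 180.1 and 193 in controls, and 454, 423 and 409 with EGF at 12 h, against 461, 551 and 554 in controls. At 4 h all 6 arrays were below the filter level of 215.4, and the probe set entered the test only through its 12 h signals, so this call rests on dim values. The effect was -1.57 ± 0.39 at 4 h (adjusted p = 0.00879) and -0.27 ± 0.39 at 12 h (adjusted p = 0.627), and with an offset of 97.6 the 4 h value was -0.90. With the 4 h experiment fitted alone, the 4 h adjusted p was 0.0901. Aurkb averaged 243 ± 88.2 with EGF and 519 ± 91.5 in controls at 4 h (-1.07 ± 0.34, adjusted p = 0.0325, or 0.137 with EGF replicate 1 at 4 h left out; SD, n = 3 each). At 12 h its EGF arrays of 659, 417 and 257 spread up into the controls of 708, 653 and 603 (-0.62 ± 0.34, adjusted p = 0.175). Birc5 (survivin), the third of these genes on the list, passed at neither time (-0.63 ± 0.47 and 0.22 ± 0.47, adjusted p = 0.358 and 0.750).

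Of the 4 measured chromosome genes, 2 fell at 4 h and 3 at 12 h, with medians of -0.73 and -0.96. Mki67, the proliferation marker that coats mitotic chromosomes, had 361, 333 and 201 with EGF at 4 h, against 502, 604 and 774 in controls, and 721, 666 and 385 with EGF at 12 h, against 1301, 1318 and 1594 in controls. All EGF arrays lay below their controls, and replicate 3 was the lowest EGF array at each time. The fold change was -1.03 ± 0.28 at 4 h (adjusted p = 0.0147, limma, or 0.0630 with control replicate 3 at 4 h left out) and -1.26 ± 0.28 at 12 h (adjusted p = 0.00346). Top2a, the topoisomerase that untangles sister chromatids, had 488, 407 and 559 with EGF at 12 h, against 899, 1065 and 1132 in controls. The groups were apart (-1.06 ± 0.23, adjusted p = 0.00310), while 642, 556 and 956 with EGF at 4 h overlapped the controls of 766, 958 and 1132 (-0.42 ± 0.23, adjusted p = 0.212). A second Top2a probe set passed at neither time (-0.83 and -0.67). Smc2, a core subunit of condensin, had 747, 769 and 784 with EGF at 4 h, against 985, 1197 and 1540.2 in controls, and 1127, 1002 and 777 with EGF at 12 h, against 1399, 1789.6 and 1977 in controls. It fell at both times (-0.65 ± 0.21, adjusted p = 0.0295, or 0.124 with control replicate 3 at 4 h left out, and -0.82 ± 0.21, adjusted p = 0.00708, at 12 h). At 4 h its adjusted p was 0.0531 with the replicate number as a block. Its partner Smc4 averaged 1258 ± 302 with EGF and 2312 ± 482 in controls at 12 h (SD, n = 3 each) and passed at neither time (-0.80 ± 0.36 and -0.87 ± 0.36, adjusted p = 0.117 and 0.0726).

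Control cultures of the 2 experiments differed in many genes, some of the members among them, which bears on any level set across times. In the 12 h controls, 13 of the 35 tested members were higher than in the 4 h controls and 2 were lower, where 23.8% of all tested probe sets (28.4% of genes) were higher and 21.7% (16.6% of genes) lower. Ect2 averaged 2173 ± 421 in the 12 h controls and 941 ± 106 in the 4 h controls (1.18 ± 0.26, adjusted p = 0.00320), and Mki67 averaged 1404 ± 164 in the 12 h controls and 627 ± 137 in the 4 h controls (1.15 ± 0.28, adjusted p = 0.00535; SD, n = 3 each). Racgap1 (1.23, lost with the mean of its probe sets), Cdca8 (1.56), Melk (0.95) and Cdca3 (0.85) were also higher. The lower ones were Cks1b (-1.64 ± 0.24, adjusted p = 0.000230) and Mad2l1 (-0.77 ± 0.23, adjusted p = 0.0160, or 0.0519 with control replicate 2 at 4 h left out). The count was 9 without control replicate 3 at 12 h. Time in culture and the set of arrays cannot be told apart here.

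Other genes of these phases, taken from lists drawn up for the pathway, were counted in the same way. Of 52 tested further G2 and mitosis genes, 15 fell and 1 rose at 4 h, and 16 fell and 2 rose at 12 h, with medians over the 63 measured of -0.60 and -0.39. Over all tested genes 19.6% fell and 12.8% rose at 4 h, and 24.2% fell and 16.5% rose at 12 h. Wee1, the kinase that inhibits Cdk1, fell at both times (-0.65 ± 0.15, adjusted p = 0.00644, and -1.10 ± 0.15, adjusted p = 9.29e-05), as did the spindle protein gene Spag5 (-0.94 ± 0.29, adjusted p = 0.0282, and -2.01 ± 0.29, adjusted p = 0.000146) and the kinesin gene Kifc1 (-1.0 ± 0.20, adjusted p = 0.00243, and -0.65 ± 0.20, adjusted p = 0.0229). Gtse1 (-2.07 ± 0.41, adjusted p = 0.00196), the condensin II subunit gene Ncapd3 (-0.95 ± 0.16, adjusted p = 0.000582) and the cohesin gene Rad21 (-0.68 ± 0.12, adjusted p = 0.000699) fell at 4 h. Depdc1 (-1.59 ± 0.27, adjusted p = 0.000459) and Arl6ip1 (-0.90 ± 0.15, adjusted p = 0.000414) fell at 12 h. The tubulin gene Tubb4b rose at both times (0.95 ± 0.15, adjusted p = 0.000335, and 1.58 ± 0.15, adjusted p = 2.80e-06).

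Of 24 tested regulators of entry into and passage through the cycle, 9 fell and 2 rose at 4 h, and 9 fell and 1 rose at 12 h, to be read against those same shares of all genes. Rbl2 (p130), a repressor of cell cycle genes in resting cells, fell at both times (-1.23 ± 0.15, adjusted p = 4.62e-05, and -0.89 ± 0.15, adjusted p = 0.000444). E2f4, which acts with it, rose at 4 h (0.84 ± 0.15, adjusted p = 0.00121). The inhibitor Cdkn1b (p27) fell as well (-1.38 ± 0.13, adjusted p = 3.68e-06, and -0.72 ± 0.13, adjusted p = 0.000585), and so did Gadd45b (-2.30 ± 0.15 and -2.21 ± 0.15, adjusted p = 1.76e-07 and 1.38e-07) and Ccng2 (-3.20 ± 0.14 and -1.45 ± 0.14, adjusted p = 4.50e-09 and 3.35e-06), genes linked to growth arrest. Nfya, a subunit of the CCAAT-binding factor NF-Y, named here after its values were seen, rose at 4 h (0.67 ± 0.15, adjusted p = 0.00460) and fell at 12 h (-0.64 ± 0.15, adjusted p = 0.00444). Cyclin D1 (Ccnd1), which drives G1, rose at 12 h (1.18 ± 0.19, adjusted p = 0.000343) and had 0.07 ± 0.19 at 4 h (adjusted p = 0.839).

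Genes of G1 and DNA replication were rarely called lower at 12 h, and the share called higher was near that of all genes. Of 30 tested, 8 fell and 1 rose at 4 h, and 1 fell and 4 rose at 12 h, with medians over the 32 measured of -0.46 and 0.27, where 24.2% of all tested genes fell and 16.5% rose at 12 h. The licensing genes Cdt1 (1.54 ± 0.27, adjusted p = 0.000582), Mcm6 (1.00 ± 0.16, adjusted p = 0.000358) and Orc6 (1.16 ± 0.19, adjusted p = 0.000321) and the single-strand binding protein gene Rpa2 (0.81 ± 0.25, adjusted p = 0.0216) rose at 12 h. Rrm1, a subunit of ribonucleotide reductase, fell at both times (-1.06 ± 0.15 and -1.74 ± 0.15, adjusted p = 0.000173 and 1.39e-06). The effect was higher at 12 h than at 4 h in 8 of the 30 and in 1 of the 35 G2 and mitosis genes, where 6.55% of all tested genes passed in that direction, and the difference between the lists was not tested.

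**Figure D4:**
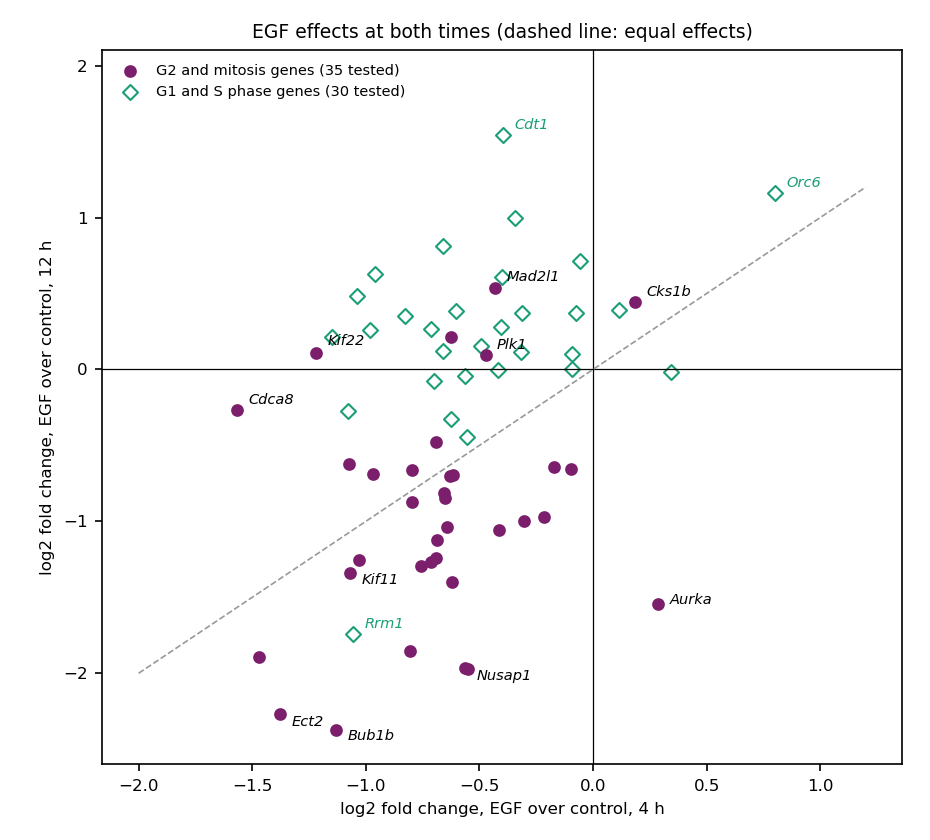
Log2 fold change of EGF over control at 4 h (x axis) and at 12 h (y axis) for the 35 tested G2 and mitosis genes (filled circles) and the 30 tested G1 and S phase genes (open diamonds), with a dashed line where both effects are equal. The median of the measured G2 and mitosis genes is -0.65 at 4 h and -1.02 at 12 h, and that of the measured G1 and S phase genes -0.46 and 0.27.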

How the data were processed

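Total RNA of 12 astrocyte samples was labelled and hybridised to 1-colour Affymetrix arrays. The deposited values are MAS5 signals, per the submitters' processing notes, an intensity per probe set on a linear scale. The deposited arrays share a trimmed mean of signal, which shows a common scaling. The MAS5 version, the array software settings and a genome build are not given in the sources used here.

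Signals were tested as log2(signal + 24.4), the offset being the 10th percentile of all signals, in limma 3.58.1 (R 4.3.3; lmFit, and eBayes with an intensity trend) over 4 groups of 3 arrays with 8 residual degrees of freedom. Of 31099 probe sets, 57 were controls, and the 18625 whose mean signal reached the 40th percentile (215.4) entered a two-sided test with Benjamini-Hochberg adjustment over all of them. The fold change understates the change of dim genes. Gene names came from the platform annotation: 20832 probe sets had 1 symbol, 436 several and 9831 none, and the last 2 kinds were named by no gene. Where a gene had several probe sets, that with the highest mean signal was used. Tested on simulated data, the fit called most of the larger known changes and a minority of the smaller ones. In the simulation few probe sets changed, arrays varied independently and there were no array sets. Its recovery rates therefore do not carry over to these data. With 3 arrays a group, their number limits the precision.

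The members and the other lists were chosen with earlier results of these data known. Values on every array are given for up to 4 called members of each role with the smallest p, and for the cyclins, Cdk1 and Mki67. Those of Cks1b, Mad2l1, Plk1, Aurkb and the 3 untested members were added after their values were seen. Other lists give up to 5 genes with the smallest p at each time. Alternatives covered the offset, filter, scaling, probe sets, array sets, the replicate number and leaving out each array. The labels do not say what a replicate number marks. Deviations of EGF and control arrays of one number correlated at r = 0.12, 0.15 and 0.38 at 4 h, and at 0.08, -0.11 and -0.10 at 12 h. At 4 h, EGF replicate 1 with control replicate 2 gave 0.14, as did EGF replicate 2 with control replicate 1. The values therefore do not show that the numbers pair replicates 1 and 2. Replicate 3 at 4 h is also the pair set apart by its hybridisation controls. For 4 h calls, the value with the number as a block is given as an alternative where it changes a call. Promoters came from RefSeq tables, with motifs on both strands.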

Additional observations from a re-analysis of the deposited data

Results flagged for a closer look

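The EGF effect on 2 of the 35 tested members differed between the experiments by the test of the difference. Over all tested genes, 7.45% had a lower and 6.55% a higher effect at 12 h than at 4 h. For Kif22 the effect at 12 h minus that at 4 h was 1.33 on the log2 scale, and for Nusap1 it was -1.40. Both stayed called whichever of the 12 arrays was left out, with a highest adjusted p of 0.0254 in limma.

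Among the other cell cycle genes tested, the difference passed for 4 of 24 regulators, 8 of 30 genes of G1 and DNA replication and 0 of 52 further G2 and mitosis genes. These counts are to be read against 7.45% of all tested genes lower and 6.55% higher. Of the regulators, the EGF effect was higher at 12 h than at 4 h for Ccng2 (1.75), Ccnd1 (1.12) and Cdkn1b (0.66) and lower for Nfya (-1.31). Of the genes of G1 and DNA replication, it was higher at 12 h for all 8, namely Cdt1 (1.94), Mcm3 (1.52), Rpa2 (1.47), Pold1 (1.36), Mcm6 (1.34), Rfc3 (1.25), Mcm4 (0.99) and Prim1 (0.98). The 2 experiments also differed in their sets of arrays, whose part in these values was not tested.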

How the results depend on the processing

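Under the alternatives run, no call reversed. However, several alternatives each called 1 member higher at 12 h that had not been called, not shown to be the same one throughout. These alternatives were no intensity trend, the mean of the tested probe sets of a gene and the array set as a block. Leaving out EGF replicate 1 or EGF replicate 3 at 12 h also did so. With the array set as a block and without EGF replicate 3 the member was Mad2l1, and both settings give the same 12 h fold changes. For the others the member is not identified here. The count of members called at 4 h, 14, was 8 with a stricter filter (mean signal of 728.5 or more), 6 with median centring, 7 with quantile normalization and 9 without the replicate 3 pair, and leaving out 1 array gave 8 to 17. The count at 12 h, 24, was 15 with the stricter filter and 17 to 25 without 1 array. The difference between times passed for 2 members, for 4 with the array set as a block and for 2 to 4 without 1 array. Between the controls, 15 members differed, 8 with the stricter filter and 9 to 18 without 1 array. The stricter filter tests fewer members (18), and for the other settings the cause was not tested. The median at 4 h, -0.65, was -0.46 with median centring and -0.79 to -0.50 without 1 array, and that at 12 h, -1.02, ranged over the alternatives between -1.07 and -0.83. With the replicate block, 13 members passed at 4 h (Melk and Smc2 lost, Cdc20 gained), 23 at 12 h (Bub1 lost, adjusted p = 0.0519) and 2 for the difference, and it changed no other call of a member in these comparisons. The numbers are not shown to pair the arrays at 12 h, nor replicates 1 and 2 at 4 h. Neither block gave a value for the controls, since blocks lie within a time. Of the called members, 4 of 14 at 4 h, 17 of 24 at 12 h, 2 of 2 for the difference and 7 of 15 between controls passed under every alternative that tested them. Dim signals limit Cdca8 at 4 h and Bub1b and Aurka at 12 h, whose fold changes of -1.57, -2.37 and -1.55 were -0.90, -1.62 and -1.15 with an offset of 97.6.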
